A study of Mus musculus with 4 samples.

Results

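The 44 genes described here encode proteins of nucleotide excision repair, base excision repair and damage tolerance, the routes by which skin cells remove or bypass DNA lesions made by ultraviolet light and by oxidation. They were taken from a fixed list of names and not by a rule on their values, though earlier results of these data were known. Each is represented by the probe set with the highest mean among those that the array annotation pairs with that gene alone. Of the 44, 42 had such a probe set, against 19938 genes with one over the whole array, and 41 passed the filter on low signals. Gtf2h2 was not analysed here, the probe sets of Tdg also match its pseudogene Tdg-ps2 and were not used, and Neil2 lay below the filter. Expression was measured on Affymetrix whole-transcript arrays in whole back skin of 4 C57Bl6 littermate mice at postnatal day 22, in telogen, when hair follicles rest. The 2 knockout (KO) mice lacked both copies of Bmal1 in the germline, in every cell type, and the 2 heterozygous (het) mice carried 1 mutant and 1 wild-type allele. No wild-type mouse is in the comparison. All skin was taken at ZT22, that is 22 h after lights on, under a cycle of 12 h light and 12 h dark, so that a single time of day was sampled and no rhythm can be read from these values.

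Nucleotide excision repair removes the bulky dimers that ultraviolet light forms between neighbouring pyrimidines. A lesion is recognised, either anywhere in the genome by XPC and the UV-DDB complex or at a stalled RNA polymerase by the Cockayne syndrome proteins, TFIIH opens the helix, XPA and the single-strand binding protein RPA verify the lesion and hold the strands apart, and a pair of nucleases cuts out the damaged stretch. Base excision repair instead starts with a glycosylase that removes one damaged base, and translesion polymerases copy past lesions that remain. BMAL1, encoded by Arntl, pairs with CLOCK and drives transcription from E-box elements, and Xpa is described as a clock-controlled gene in mouse skin and liver. The comparison of KO with het skin asked whether transcripts of any repair step differ without Bmal1 late in the dark phase.

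Arntl itself read 8.29 and 8.16 in the KO arrays, against 8.90 and 9.08 in the het arrays, on the log2 scale used for every level below. The difference, KO minus het as everywhere below, was -0.76 (SE 0.12, n = 2 per genotype, limma adjusted p = 0.015). Whether its probes lie within the deleted stretch was not tested, so the signal left in KO skin cannot be read as functional transcript. Over the 16341 tested probe sets, 323 passed an adjusted p under 0.05, or 1.98%, of which 241 were higher in KO skin (74.6%; 85.4% after median centring). That count was 77 without KO 1 and 986 without het 1, and 0 when probe sets matching several genes were tested as well or when all probe sets were tested. All 6 markers of basal keratinocytes, the cells at the base of the epidermis, passed the filter, with a summed linear signal of 18702 and 15374 in KO arrays, against 18716 and 13881 in het arrays. Of these, 2 were positive and 4 negative, with a median difference of -0.06. RNA of whole skin cannot tell fewer cells of a type from less RNA per cell.

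No repair gene passed the limma test over all tested probe sets (0 of 41 at an adjusted p under 0.05). After median centring 1 did, Polh (limma adjusted p = 0.040). At an unadjusted p under 0.05, 4 of 41 were higher in KO skin, which is 9.76%, against 11.6% of all tested probe sets. None was lower, against 6.38%. The 4 genes were Polh, Gtf2h3, Neil1 and Ung, which belong to 3 different steps. Without KO 1 the count was 2, Polh and Gtf2h3, which is 4.88% of the repair genes, against 10.3% of all tested probe sets in both directions. After median centring it was 8, all higher (19.5%, against 23.5%). With the label number fitted as a replicate block it was 7 (17.1%, against 22.5%), of which 6 were higher and 1, Rpa3, was lower. Differences of the 41 genes ran from -0.30, for Rpa3, to 0.41, for Polh. Their median was 0.09, against 0.02 over all tested probe sets, and 32 of 41 (78.0%) were positive, against 54.2%. Without KO 1 the median was 0.05 with 26 positive, against a median of -0.0042 over all tested probe sets. Without KO 2 it was 0.14 with 31 positive, against 0.049. Both KO arrays lay above both het arrays for 16 of the 41 genes, where the share over all tested probe sets was 27.8%. Both lay below for 3, against 22.1%. The difference between genotypes exceeded the gap between arrays of each genotype for 10 of 41 genes (24.4%), against 36.2% of all tested probe sets.

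**Figure D1:**
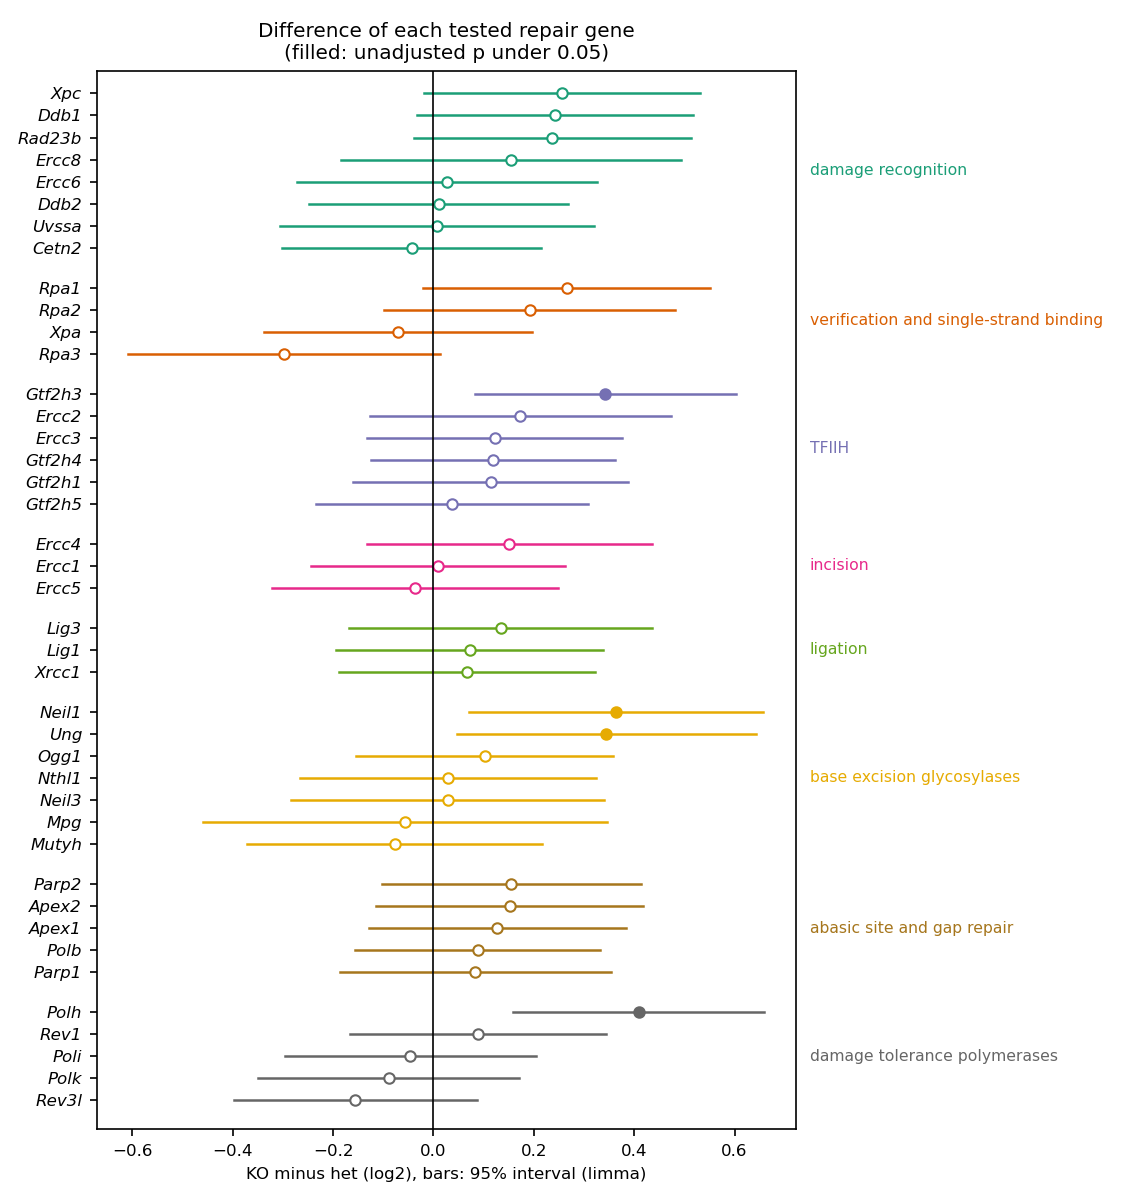
KO minus het difference (log2) of the 41 tested repair genes, grouped by step, with 95% intervals from limma; filled points mark an unadjusted p under 0.05. Only the intervals of Polh, Gtf2h3, Neil1 and Ung lie wholly on one side of 0, and none of these genes passed after adjustment.

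Polh encodes DNA polymerase eta, which copies past thymine dimers and whose loss causes the variant form of xeroderma pigmentosum. It read 8.26 and 8.33 in KO arrays, against 7.86 and 7.91 in het arrays. Both KO arrays were higher than both het arrays by more than the gap within either pair. The difference was 0.41 (SE 0.11, 95% interval 0.16 to 0.66, n = 2 per genotype), a level in KO skin of 133% of that in het skin, with a limma adjusted p of 0.096. That p was 0.040 after median centring and ranged from 0.040 to 0.35 over all alternatives. With 1 array left out the difference stayed between 0.37, without KO 2, and 0.45, without KO 1. Among the other translesion polymerases the differences lay nearer to 0. Rev1, a deoxycytidyl transferase and scaffold for the other polymerases, differed by 0.09 (95% interval -0.17 to 0.34). Poli, polymerase iota, differed by -0.05 (-0.30 to 0.20), and Polk, polymerase kappa, by -0.09 (-0.35 to 0.17). Rev3l, the catalytic subunit of polymerase zeta, read 9.28 and 9.27 in KO arrays, against 9.40 and 9.46 in het arrays. Its KO arrays were below both het arrays, with a difference of -0.16 (SE 0.11, adjusted p = 0.49, limma). The difference between Polh and its relatives was not tested.

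Xpa, which encodes the protein that verifies the lesion, read 8.55 and 8.68 in KO arrays, against 8.59 and 8.78 in het arrays. The arrays of the genotypes overlapped, and the difference was -0.07 (SE 0.12, 95% interval -0.34 to 0.20, adjusted p = 0.80, limma). The interval takes in KO levels up to 0.34 below and 0.20 above het on the log2 scale. The sign of the Xpa difference was not stable either. It was 0.02 without het 2, 0.04 in the values as deposited and 0.08 after median centring.

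RPA, which coats the opened strand and works with XPA, has a large, a middle and a small subunit. Rpa1, the large one, read 8.83 and 8.53 in KO arrays, against 8.43 and 8.40 in het arrays. Both KO arrays were higher, with a difference of 0.27 (SE 0.13, adjusted p = 0.31, limma) that was 0.11 without KO 1 and 0.42 without KO 2. Rpa2 differed by 0.19 (SE 0.13), with overlapping arrays. Rpa3, the small subunit, has 2 probe sets that disagreed in direction. The brighter one read 7.84 and 8.03 in KO arrays, against 8.07 and 8.39 in het arrays, a difference of -0.30 (SE 0.14, adjusted p = 0.30, limma), or -0.14 without het 2 and -0.46 without het 1. The other read 7.86 and 8.08 in KO arrays, against 7.88 and 7.68 in het arrays, a difference of 0.19. With their mean in place of the brighter one, the Rpa3 difference was -0.05, so no direction can be given for this gene.

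**Figure D2:**
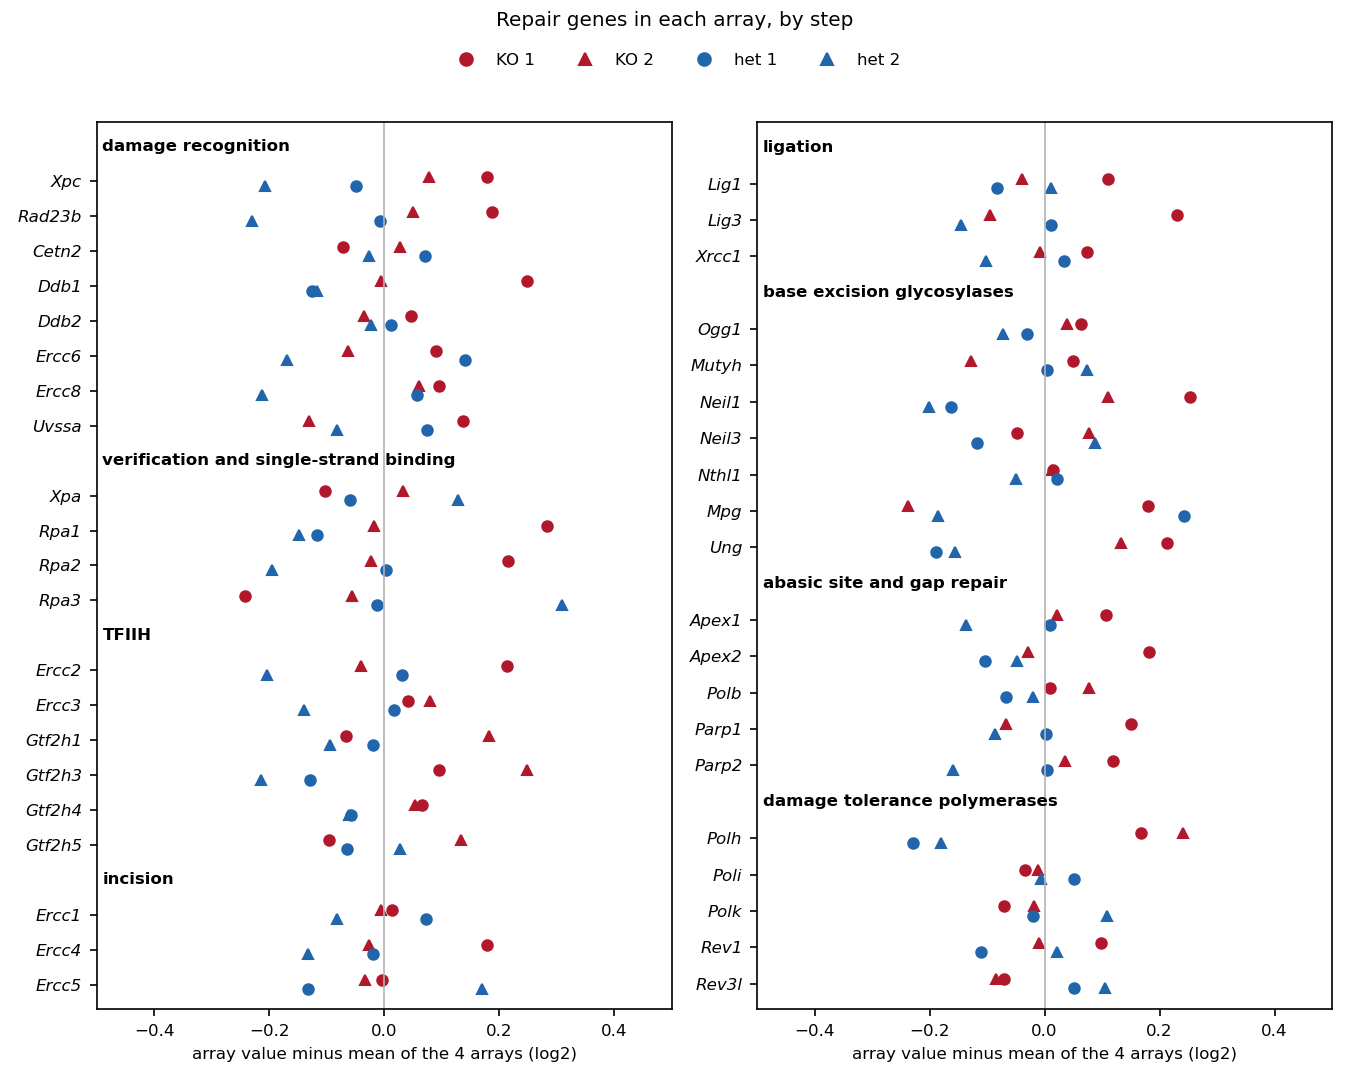
Value of each tested repair gene in each array, as log2 distance from the mean of that gene over the 4 arrays; red symbols are KO arrays, blue symbols het arrays, circles number 1 and triangles number 2. KO 1 was the highest array for 22 of the 41 genes and het 2 the lowest for 21.

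Among the recognition genes, the components of global genome repair that differed most were higher in KO skin, without passing. Xpc, the damage sensor, read 7.90 and 7.79 in KO arrays, against 7.67 and 7.51 in het arrays. Rad23b, which stabilises XPC, read 10.7 and 10.5 in KO arrays, against 10.5 and 10.2 in het arrays. Ddb1, a subunit of UV-DDB and adaptor of the CUL4 ubiquitin ligase, read 10.7 and 10.5 in KO arrays, against 10.4 and 10.4 in het arrays. In 4 of the 8 recognition genes, these 3 and Ercc8, both KO arrays lay above both het arrays. That held for 27.8% of all tested probe sets. Xpc, Rad23b and Ddb1 differed by 0.26, 0.24 and 0.24 (SE 0.12 each), with adjusted p of 0.31, 0.35 and 0.33 from limma. Ddb2, the lesion-binding partner of Ddb1, differed by 0.01 (95% interval -0.25 to 0.27), and Cetn2, the centrin of the XPC complex, by -0.04. In the branch coupled to transcription, Ercc8, or CSA, differed by 0.15 (SE 0.15), Ercc6, or CSB, by 0.03 (SE 0.13) and Uvssa, which recruits TFIIH, by 0.01 (SE 0.14). Ercc6 and Uvssa were negative without KO 1 (-0.05 and -0.13).

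TFIIH is the helicase complex of repair and transcription initiation, and the 44 genes leave out its kinase module. All 6 tested subunits among them were positive, with a median of 0.12, where 54.2% of all tested probe sets were positive. Gtf2h3, which encodes the p34 subunit, read 8.24 and 8.39 in KO arrays, against 8.01 and 7.93 in het arrays. Both KO arrays were higher, with a difference of 0.34 (SE 0.12, adjusted p = 0.17, limma), and 0.27 without KO 2. The helicases Ercc2 (XPD) and Ercc3 (XPB) differed by 0.17 and 0.12, and Gtf2h4, Gtf2h1 and Gtf2h5 by 0.12, 0.11 and 0.04. Gtf2h1 was negative without KO 2 (-0.01), and Gtf2h5 was negative without KO 2 (-0.08) and without het 1 (-0.01). Of the nucleases that cut on either side of the lesion, Ercc4 (XPF) differed by 0.15, its partner Ercc1 by 0.01 and Ercc5 (XPG) by -0.04, with 95% intervals of -0.13 to 0.44, -0.24 to 0.26 and -0.32 to 0.25. Of the sealing enzymes, Lig3 differed by 0.13, the replicative ligase Lig1 by 0.07, and the scaffold Xrcc1 by 0.07. Without KO 1, Lig3 and Lig1 were -0.03 and -0.0024.

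Of the 7 tested DNA glycosylases, Neil1 and Ung stood highest. Neil1, which removes oxidised pyrimidines, read 7.55 and 7.41 in KO arrays, against 7.13 and 7.09 in het arrays. Ung, the uracil glycosylase, read 7.36 and 7.28 in KO arrays, against 6.96 and 6.99 in het arrays. In both genes and in Ogg1, 3 of the 7 tested, both KO arrays lay above both het arrays. That held for 27.8% of all tested probe sets. Neil1 and Ung differed by 0.36 (SE 0.13, adjusted p = 0.18) and 0.34 (SE 0.13, adjusted p = 0.21) by limma. Both genes lay below the stricter filter at the 50th percentile and were not tested there. Ogg1, which removes oxidised guanine, differed by 0.10, Neil3 and Nthl1 by 0.03 each, and Mutyh, which removes adenine opposite oxidised guanine, by -0.08. Mpg, the alkyladenine glycosylase, split by the number in the labels rather than by genotype. It read 7.75 in KO 1 and 7.34 in KO 2, against 7.82 in het 1 and 7.39 in het 2, and its difference of -0.06 had an interval of -0.46 to 0.35. Neil2, below the filter and so not tested, read 5.87 and 5.66 in KO arrays, against 5.88 and 5.53 in het arrays.

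The 5 listed genes of abasic site and gap repair, counted apart from the sealing enzymes above, were all positive and close together. Over all tested probe sets 54.2% were positive. Of 9 other base excision genes tested, outside the 44, 5 were positive and 4 negative. Apex1 and Apex2, the endonucleases that cut at abasic sites, differed by 0.13 and 0.15. Polb, the gap-filling polymerase, differed by 0.09, and Parp1 and Parp2, the sensors of strand breaks, by 0.08 and 0.16. Both KO arrays lay above both het arrays in 4 of these 5 genes, where 27.8% of all tested probe sets did so. The exception was Parp1, which was -0.03 without KO 1. None passed, and the widest of their intervals was that of Parp1, -0.19 to 0.35.

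**Figure D3:**
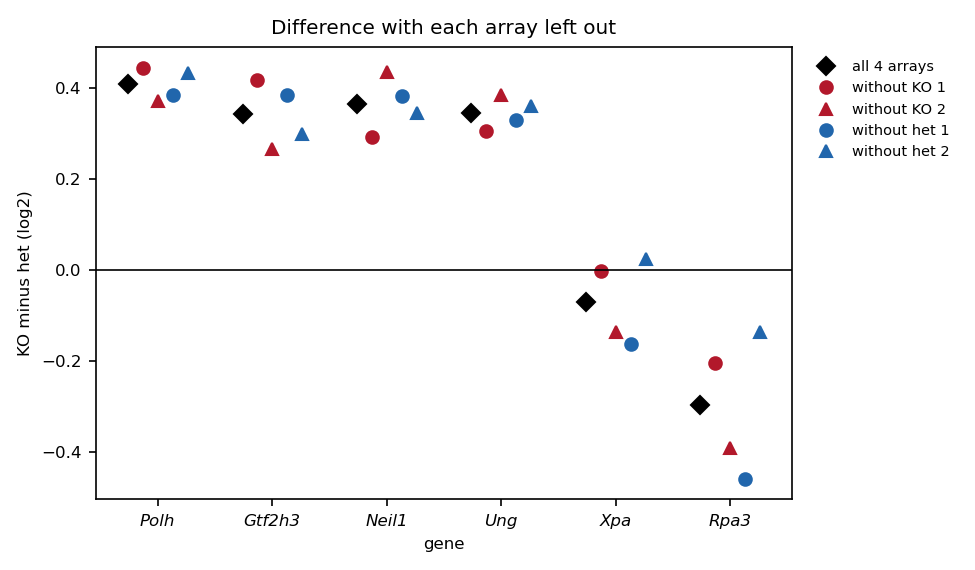
KO minus het difference (log2) of 6 repair genes with all 4 arrays and with each array left out in turn; points carry no error bars. Polh stays between 0.37 and 0.45, whereas Xpa lies between -0.16 and 0.02 and Rpa3, brighter probe set, between -0.46 and -0.14.

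Because BMAL1 acts through E-boxes, the start regions of the repair genes were searched for the canonical E-box CACGTG, which reads the same on both strands, and for the D-box TTATGTAA on either strand. RefSeq start regions (GRCm38.p6), from 250 bases before to 50 after the start, were held for 36 of the 44 genes. An E-box was found for 12 of these 36 genes (33.3%). The share was 8.09% of all 27025 genes with such a region and 11.0% of those tested on the array. A D-box was found for 0 of the 36, against 1.11% and 0.77%. Among 11 of the 12 clock genes looked at beside the repair genes, 4 held an E-box (36.4%). These sets of genes were not matched for base composition, so the shares are a description only. Apex1 held 3 E-boxes, Gtf2h1 held 2, and Ercc6, Ercc8, Gtf2h5, Lig1, Lig3, Parp1, Parp2, Rev1, Rpa1 and Tdg held 1 each in at least one region. None of the 4 genes at an unadjusted p under 0.05 and neither Xpa nor Rpa3 held these letters in this window. The regions below are those of Xpa, the gene known as clock-controlled, of Polh, the gene with the widest difference, of Rpa1, the gene with the widest difference among those with an E-box, and of Gtf2h1 and Apex1, which hold several. They run 5′ to 3′ on the strand of the gene, with E-boxes in capitals.
Xpa (chr4:46196262-46196561, minus strand): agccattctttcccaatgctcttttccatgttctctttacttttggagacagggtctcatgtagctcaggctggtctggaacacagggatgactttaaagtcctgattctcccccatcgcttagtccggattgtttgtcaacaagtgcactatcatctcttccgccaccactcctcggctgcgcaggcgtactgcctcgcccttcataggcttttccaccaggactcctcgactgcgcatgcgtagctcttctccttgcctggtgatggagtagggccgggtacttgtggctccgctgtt
Polh (chr17:46202592-46202891, minus strand): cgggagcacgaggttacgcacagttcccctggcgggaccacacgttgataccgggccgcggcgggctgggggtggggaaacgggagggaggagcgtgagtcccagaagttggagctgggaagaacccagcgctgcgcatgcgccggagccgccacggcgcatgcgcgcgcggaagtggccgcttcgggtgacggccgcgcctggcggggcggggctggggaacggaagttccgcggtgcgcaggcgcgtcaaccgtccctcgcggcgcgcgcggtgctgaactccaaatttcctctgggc
Rpa1 (chr11:75348334-75348633, minus strand): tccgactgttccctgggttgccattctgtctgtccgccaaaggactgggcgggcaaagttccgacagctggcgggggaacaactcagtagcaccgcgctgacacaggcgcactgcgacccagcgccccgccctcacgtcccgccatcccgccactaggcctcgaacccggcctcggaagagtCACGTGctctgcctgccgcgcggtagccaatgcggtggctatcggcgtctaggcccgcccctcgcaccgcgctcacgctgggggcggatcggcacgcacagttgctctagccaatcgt
Gtf2h1 (chr7:46795844-46796143, plus strand): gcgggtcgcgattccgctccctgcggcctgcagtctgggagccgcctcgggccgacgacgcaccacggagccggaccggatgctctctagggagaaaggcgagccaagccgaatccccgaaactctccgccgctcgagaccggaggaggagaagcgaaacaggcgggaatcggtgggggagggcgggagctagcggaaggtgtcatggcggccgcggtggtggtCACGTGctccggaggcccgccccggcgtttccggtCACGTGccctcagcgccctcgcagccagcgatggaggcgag
Apex1 (chr14:50924699-50924998, plus strand): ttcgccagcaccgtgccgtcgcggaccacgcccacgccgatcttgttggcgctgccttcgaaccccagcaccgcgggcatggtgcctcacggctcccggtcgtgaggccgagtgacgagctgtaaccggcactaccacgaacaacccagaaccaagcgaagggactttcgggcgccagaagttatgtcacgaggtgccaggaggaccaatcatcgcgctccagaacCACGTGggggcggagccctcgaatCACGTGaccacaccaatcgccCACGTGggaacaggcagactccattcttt
A match of these letters is a description and does not show a bound site.

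The 11 tested genes with an E-box in the window had small positive differences, from 0.03 for Ercc6 to 0.27 for Rpa1, with a median of 0.11. The 23 tested genes with a region and no E-box ran from -0.30 to 0.41, with a median of 0.07, and 16 of them were positive. All 11 with an E-box were positive with the 4 arrays, against 78.0% of the tested repair genes and 54.2% of all tested probe sets. Of the 11, 7 were positive without KO 1, 9 without KO 2, 10 without het 1 and 10 without het 2. Without het 2 the medians were 0.07 and 0.08. At an unadjusted p under 0.05 there were 0 of the 11 and 4 of the 23, against 17.9% of all tested probe sets in both directions. The difference between these groups was not tested.

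Other genes of the same pathways came from a list of 46, of which 44 were tested. None passed the limma test over all probe sets. At an unadjusted p under 0.05, 3 of the 44 (6.82%) were higher, against 11.6% of all tested probe sets, and 0 lower, against 6.38%. The median was 0.05, and 26 of the 44 (59.1%) were positive, against 54.2%. The 3 were Mnat1, a subunit of the kinase module of TFIIH (0.36, SE 0.15), Primpol, a primase that restarts synthesis past lesions (0.32, SE 0.13), and Pold2, a subunit of polymerase delta (0.32, SE 0.13). Pole2, a subunit of polymerase epsilon, followed with 0.29 (SE 0.14). The negative differences with the smallest p were those of Mad2l2, the partner of REV3L in polymerase zeta (-0.21, SE 0.11), Hmgn1, a nucleosome-binding protein (-0.13, SE 0.11), Rfc3, a subunit of the clamp loader (-0.13, SE 0.12), and Rbx1, the RING subunit of cullin ligases (-0.11, SE 0.11). Mad2l2 read 8.70 and 8.74 in KO arrays, against 8.91 and 8.95 in het arrays, so both of its KO arrays were lower. That held for 8 of the 44 genes, Hmgn1, Rfc3 and Rbx1 among them, against 22.1% of all tested probe sets. Both KO arrays were higher for 17 of the 44, against 27.8%.

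**Figure D4:**
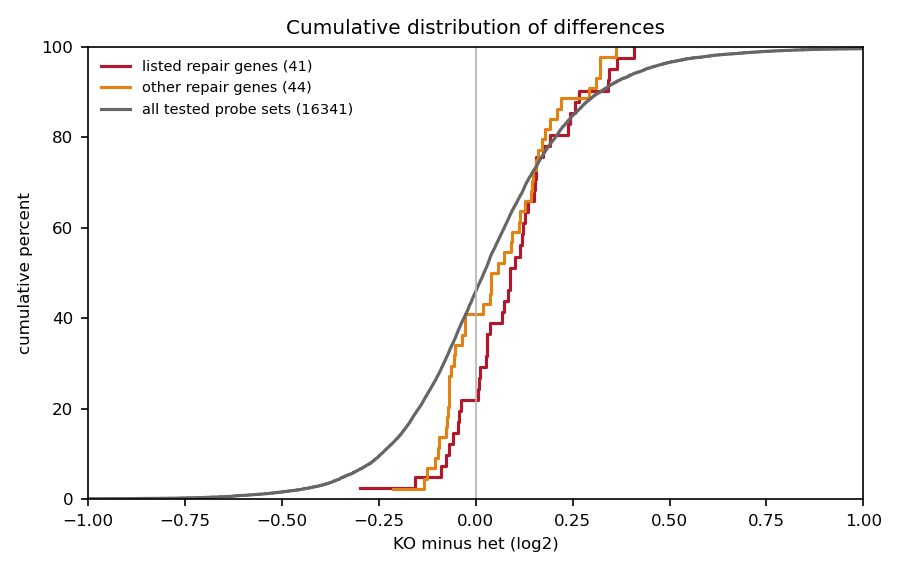
Cumulative percent of genes or probe sets against the KO minus het difference (log2), for the 41 listed repair genes, 44 other repair genes and all 16341 tested probe sets; the axis is cut at -1 and 1. The listed repair genes span -0.30 to 0.41, and 32 of the 41 lie above 0.

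Markers of cell states and cell types also differed between these arrays. Past the adjusted threshold in limma were 3 of the 9 skeletal muscle markers, 2 of the 5 sebocyte markers, 2 of the 10 mitosis genes and 0 of the 18 S-phase genes. The share over all tested probe sets was 1.98%. No marker passed among those of basal or suprabasal keratinocytes, hair follicle, fibroblasts, adipocytes, macrophages, T cells, endothelium or melanocytes. Of 18 tested S-phase genes 15 were positive, with a median of 0.17 and a summed linear signal over 19 genes of 4809 and 4636 in KO arrays, against 4233 and 4205 in het arrays. All 10 tested mitosis genes were negative, with a median of -0.23 and sums of 3776 and 4009 in KO arrays, against 4667 and 5183 in het arrays. All 9 skeletal muscle markers were positive, with a median of 0.53 and sums of 65668 and 56126 in KO arrays, against 41501 and 42023 in het arrays. All 5 sebocyte markers were positive, with a median of 0.65 and sums of 19648 and 19681 in KO arrays, against 14058 and 10434 in het arrays. None of the muscle or sebocyte markers measured was below the filter. The part of these shifts in the values of the repair genes was not tested. Among all tested probe sets KO 1 was the highest array for 35.3% and het 2 the lowest for 41.0%, against 53.7% and 51.2% of the repair genes.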

How the data were processed

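RNA was amplified, labelled with biotin and put on 4 arrays, per the labels' protocols. The submitters' processing notes name PLIER 2.0 and Affymetrix Expression Console 1.1.1. The table deposited by the authors, with 35557 probe sets, was taken as log2 from its range (2.54 to 14.9); its build, centring and scaling between arrays were not given in the sources used here. PLIER combines the probes along a transcript into a single value, so a change in part of the transcript can be hidden. The number of arrays limits the precision.

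Probe sets were paired with genes through the platform annotation: 21789 matched 1 gene, 1621 several and 12147 none. Quartiles of the deposited arrays differed by up to 0.34, above the limit of 0.1, so arrays were quantile normalized. Tested were the 16341 probe sets with 1 gene and a mean above the 25th percentile (6.67), with limma 3.58.1 in R 4.3.3 (lmFit, eBayes with a trend) and Benjamini-Hochberg adjustment over all of them. SEs and intervals are limma's moderated ones. The script was tested on simulated data.

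The members and lists were chosen with earlier results of these data known. Named are all 44 members, Arntl, and of the other repair genes the 4 with the smallest p in each direction. No list was tested. The labels do not say that the sample numbers mark litters. Alternatives were other scalings, offsets of 16 and 64, other filters and priors, the label number as a block, each array left out (the lone array then being assumed to vary like the other pair), and other sets of probe sets, of which that with 1 or several genes was added after seeing the data.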

Additional observations from a re-analysis of the deposited data

How the results depend on the processing

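Of the 41 tested repair genes, 23 kept the sign of their difference under every alternative, Polh, Gtf2h3, Neil1 and Ung among them where tested. None of the 41 passed the adjusted threshold, except 1, Polh, which did so once arrays were centred on their medians (0.49, adjusted p = 0.040) or the label number was fitted as a replicate block (0.41, adjusted p = 0.043). With 1 array left out the count of repair genes past the threshold was 0 throughout.

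The count of probe sets past the threshold, 323 as reported, was 544 in the values as deposited, 913 after median centring, 145 without a filter, 1235 with the replicate block, 0 with all probe sets and 0 with probe sets of 1 or several genes; with 1 array left out it ran from 77 to 986. At an unadjusted p under 0.05 these tests gave 3254 of 24010 probe sets and 2713 of 17557. The cause of these shifts was not tested. The count of repair genes at an unadjusted p under 0.05 was 4 as reported. It was 8 after median centring (19.5% of the repair genes, against 23.5% of all tested probe sets). With the replicate block it was 7 (17.1%, against 22.5%). When filtered at the 50th percentile, where 30 repair genes were tested, it was 2 (6.67%, against 19.7%). With 1 array left out it ran from 2, without KO 1 (4.88%, against 10.3%), to 6, without het 1 (14.6%, against 22.8%). The median difference of the tested repair genes was 0.09 as reported, 0.18 after median centring, and 0.05 to 0.14 with 1 array left out. Over all tested probe sets the median was 0.02 as reported, 0.10 after centring, and -0.013 to 0.058 with 1 array left out. For the pairing by number, the deviations of same-numbered arrays correlated at 0.17 across probe sets, and with so few pairs this does not show that the numbers pair the mice.

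Signs turned for genes near 0, and the cause was not tested. In the values as deposited these were Ercc5 (0.076), Nthl1 (-0.052), Xpa (0.044), Uvssa (-0.024) and Neil3 (-0.035). After median centring they were Ercc5 (0.11), Nthl1 (-0.016), Poli (0.029), Xpa (0.079) and Cetn2 (0.027). With 1 array left out, the differences of the following genes took both signs. Cetn2 ran from -0.093 to 0.0056 (turned without het 1 and KO 1), Ddb2 ran from -0.031 to 0.051 (turned without KO 1 and het 2) and Ercc1 ran from -0.068 to 0.086 (turned without het 2 and KO 1). Ercc5 ran from -0.19 to 0.11 (turned without het 2), Ercc6 ran from -0.13 to 0.18 (turned without het 2 and KO 1) and Gtf2h1 ran from -0.010 to 0.24 (turned without KO 2). Gtf2h5 ran from -0.078 to 0.15 (turned without KO 2 and het 1), Lig1 ran from -0.0024 to 0.15 (turned without KO 1) and Lig3 ran from -0.029 to 0.30 (turned without KO 1). Mpg ran from -0.27 to 0.16 (turned without KO 2 and het 1), Mutyh ran from -0.17 to 0.011 (turned without KO 2) and Neil3 ran from -0.074 to 0.13 (turned without het 1 and KO 2). Nthl1 ran from -0.0073 to 0.065 (turned without het 2), Parp1 ran from -0.026 to 0.19 (turned without KO 1) and Uvssa ran from -0.13 to 0.14 (turned without KO 1 and het 2). Xpa ran from -0.16 to 0.024 (turned without het 2) and Xrcc1 ran from -5.8e-04 to 0.13 (turned without het 2).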
